A study of Homo sapiens with 12 samples.

Results

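The cells described here are the top 10% of each sample by the transcripts of 7 genes of squamous differentiation, IVL, SPRR1A, SPRR1B, SPRR2A, SPRR2D, SPRR3 and TGM1. In every cell the unique molecular identifiers (UMIs, 1 per captured transcript) of the 7 genes were added and divided by the cell's total, and the 10% of cells with the highest value were taken. This gave 2386 of 23914 cells, of which 526 were SCC1, 971 SCC6 and 889 SCC25 cells. They were set against the 17312 cells with 0 UMIs of the 7 genes, the reference cells, of which 3896 were SCC1, 6409 SCC6 and 7007 SCC25 cells. Because measured values of the 7 genes chose the cells, the levels of these genes are given as a description. No test of them was made between both sets, except on UMIs held out from the choice.

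Single-cell RNA-seq (Chromium, 3′ end counting) had been done on 3 established human lines of squamous carcinoma of the head and neck, UM-SCC-1 (called SCC1), UM-SCC-6 (SCC6) and SCC25. Each received daily 100 nM of the anti-EGFR antibody cetuximab, which keeps ligands from the epidermal growth factor receptor, or phosphate-buffered saline (PBS) as untreated control, and was collected after 5 days. With 2 replicates per group there were 12 samples in 6 groups. Each line is a single cell line in culture, without stroma or a differentiating epithelium around it, and the sources leave unclear whether the replicates of a group were separate cultures, so that p-values may measure the spread between libraries only. A sample held 961 to 2854 cells and 57057402 to 112170073 UMIs, and its top 10% 96 to 285 cells and 4192813 to 9703888 UMIs.

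In stratified squamous epithelium, cells that leave the basal layer stop dividing, build a dense keratin and desmosome network, and form a cornified envelope under the plasma membrane. Involucrin (IVL) and the small proline-rich proteins (SPRR1A, SPRR1B, SPRR2A, SPRR2D, SPRR3) are precursors of that envelope, and transglutaminase 1 (TGM1) cross-links them. Squamous carcinomas keep this programme to a varying degree, and single cells of a squamous line can express parts of it.

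Of the 7 genes, 6 lie in the epidermal differentiation complex on chromosome 1 and TGM1 lies on chromosome 14. The RefSeq promoter table (GRCh38.p14) matched 5 of them by symbol, and SPRR2D and TGM1 were not matched. IVL, SPRR1B and SPRR3 are printed because they supplied most of the SPRR and IVL transcripts that chose the cells. They show the 250 bases before the annotated start on the coding strand, with matches to TGANTCA, the core motif of the AP-1 transcription factors, in capitals. The regions are chr1:152908296-152908545 for IVL, chr1:153030953-153031202 for SPRR1B and chr1:153001499-153001748 for SPRR3, all on the plus strand.
IVL: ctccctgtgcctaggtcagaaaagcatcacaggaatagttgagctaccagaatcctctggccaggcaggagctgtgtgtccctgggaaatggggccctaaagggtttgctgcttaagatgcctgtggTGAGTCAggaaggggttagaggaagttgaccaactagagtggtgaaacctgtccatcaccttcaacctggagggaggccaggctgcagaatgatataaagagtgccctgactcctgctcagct
SPRR1B: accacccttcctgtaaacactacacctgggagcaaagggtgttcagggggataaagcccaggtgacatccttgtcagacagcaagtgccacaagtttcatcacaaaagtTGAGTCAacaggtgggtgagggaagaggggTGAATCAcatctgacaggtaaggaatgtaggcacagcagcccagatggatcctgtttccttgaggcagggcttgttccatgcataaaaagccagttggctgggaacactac
SPRR3: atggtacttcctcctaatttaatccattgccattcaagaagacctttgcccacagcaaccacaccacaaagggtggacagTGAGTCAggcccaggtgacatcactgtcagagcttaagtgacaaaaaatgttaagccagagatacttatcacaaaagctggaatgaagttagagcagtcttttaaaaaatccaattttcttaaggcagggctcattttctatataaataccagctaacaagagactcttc
The motif, searched on both strands, began 123 bases before the start of IVL, 141 and 111 before that of SPRR1B and 170 before that of SPRR3. It was also present upstream of SPRR1A and SPRR2A, hence in 5 of 5 matched promoters. Of all 35116 promoters in the table, 2308 (6.57%) held it in the same window. The 5 matched genes lie in 1 complex and most belong to 1 family, so they are not independent cases. A match is a description of the letters and not a binding site.

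The 7 genes did not contribute alike. In the top-tenth cells, TGM1 made up 29.8%, IVL 29.0%, SPRR1B 28.3%, SPRR3 10.6% and SPRR2D 2.08% of the UMIs that chose them, while SPRR2A had 17 UMIs and SPRR1A 3. The lines differed in which gene led. In SCC1, SPRR1B gave 38.7% and TGM1 37.1% of these UMIs, with 13.5% from SPRR3 and 6.92% from IVL. In SCC6, IVL gave 54.3%, SPRR1B 20.2%, SPRR3 15.4% and TGM1 8.17%. In SCC25, TGM1 gave 52.7%, SPRR1B 27.8% and IVL 18.3%, and no UMI of SPRR3 was found in any cell. A UMI of TGM1 was present in 487 of 526 SCC1 and 606 of 889 SCC25 members, but in 184 of 971 SCC6 members, whereas a UMI of IVL was present in 748 SCC6 members, 215 SCC25 members and 53 SCC1 members. SPRR1B was carried by 24 SCC1, 258 SCC6 and 174 SCC25 members, so that in SCC1 its large share came from few cells. Most members in SCC1 and SCC25 were thus chosen with a UMI of TGM1, and most in SCC6 with a UMI of IVL.

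Most members had few transcripts of the 7 genes. Of the 2386 cells, 936 (39.2%) had a single UMI, which was the case for 46.4% of SCC1, 27.1% of SCC6 and 48.3% of SCC25 members. UMIs of 2 or more of the genes were found in 22.1% of members, a share of 7.60% for SCC1, 37.3% for SCC6 and 14.2% for SCC25. At the other end, 73 members (16 in SCC1, 43 in SCC6 and 14 in SCC25) had 10 or more UMIs. Together with 1 SCC6 cell outside the top 10%, they held 21.8% of all 13789 UMIs of the 7 genes, and in SCC1 45.2%. The highest single cell had 930 UMIs, in SCC1 cetuximab replicate 2. The class is thus a range on a score and not a separate cell type. The last cell inside and the first outside stood at 20.7 and 20.6 CPM (UMIs per 1000000 UMIs) in SCC1 PBS replicate 1 and at 68.9 and 68.7 CPM in SCC6 cetuximab replicate 2, and 369 members and 392 other cells lay within 10% of the threshold of their sample.

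**Figure D1:**
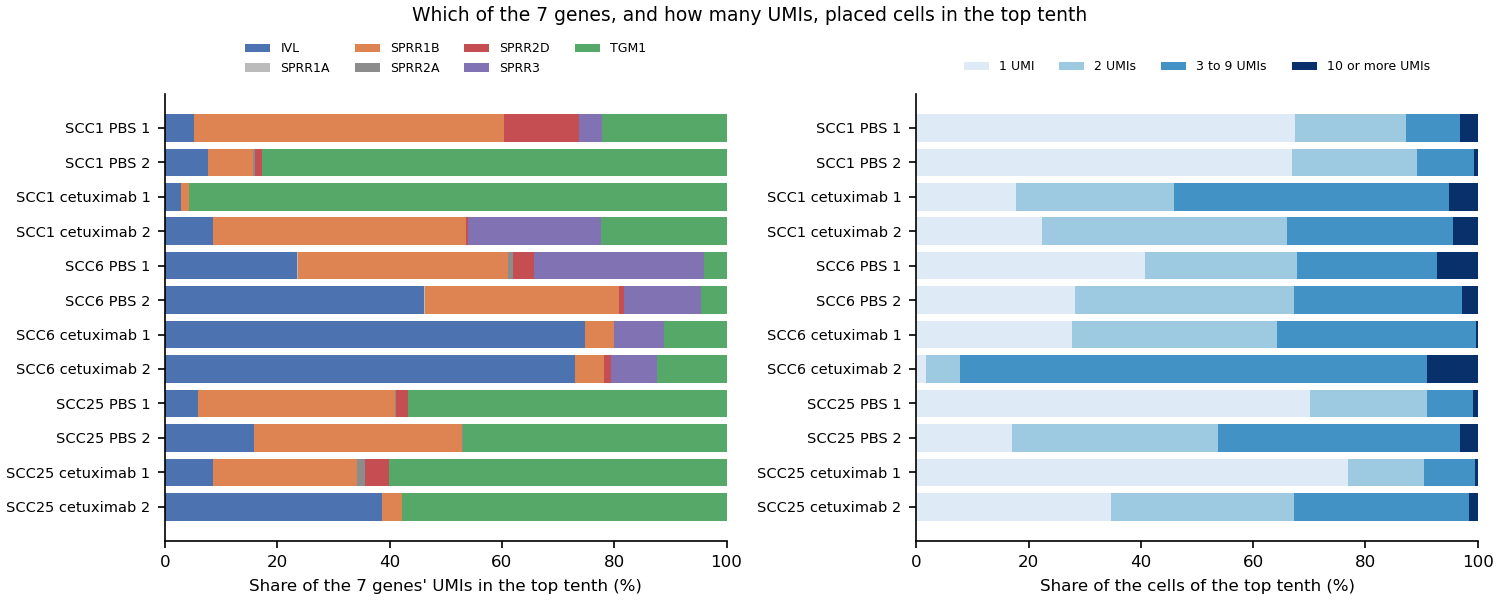
The left panel stacks, for each of the 12 samples, the share of each of the 7 genes in the UMIs that chose the top-tenth cells, in percent, and the right panel the share of members with 1, 2, 3 to 9 and 10 or more of these UMIs. IVL leads in 3 of 4 SCC6 samples and TGM1 in 4 of 4 SCC25 and 2 of 4 SCC1 samples, with SPRR1B ahead in the other samples, and members with a single UMI range from 1.82% in SCC6 cetuximab replicate 2 to 76.9% in SCC25 cetuximab replicate 1.

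The label of the cells was checked against their markers. Markers of the late cornified layer, loricrin (LOR) and filaggrin (FLG), did not reach the count needed for a test, and the 74 cells with 10 or more UMIs had no UMI of either. KRT10, the keratin of the first suprabasal layers, was not higher in any line. Of 7 suprabasal keratins tested, 5 were higher in SCC1, 1 in SCC6 and 3 in SCC25. Many basal genes were higher in SCC25. Because the markers were mixed, the cells are called top-tenth cells. Of 13 markers of blood, endothelial, liver and fibroblast cells, 5 to 10 were at 0 in the top-tenth cells of a sample. Their summed level was 5.39 to 27.8 CPM in SCC1 and SCC6, and 194 to 226 CPM in SCC25 against 168 to 216.3 CPM in the reference cells. In SCC25, CD68, which many cell types express, supplied 112 to 194 CPM of it, and PTPRC, the leucocyte antigen, was at 0 in all members. LUM, a proteoglycan made by fibroblasts, was the one of 4 such markers tested that was called. It was higher in the top-tenth cells of SCC25, at 13.3, 52.3, 20.8 and 79.2 CPM against 8.07, 25.9, 17.8 and 54.2 CPM with a log2 difference of 0.63 ± 0.09 (SE), edgeR FDR 2.58e-06, or 0.000766 with matched depth, and its part in the SCC25 results was not tested. Replicates of a group shared 3 to 10 cell barcodes and other pairs of samples 1 to 13, with at most 1 shared barcode among members. By markers of the other lines, 3 SCC6 members (0.309%) and 6 SCC25 members (0.675%) stood at 20% or more of another line's level, against 1.84% of SCC25 reference cells.

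Total UMIs entered the rule as the divisor, and the top-tenth cells were shallower than the reference cells in 9 of 12 samples. Their median was 26963 against 30878 UMIs in SCC6 PBS replicate 1, 31073.5 against 47153.5 in SCC25 cetuximab replicate 2 and 36704 against 45120 in SCC1 PBS replicate 1. It was the larger of both in SCC6 PBS replicate 2 (37494 against 36735) and in the SCC6 cetuximab replicates (23331 against 22787 and 48062 against 43819). For this reason the main counts of genes are also given against reference cells matched on depth, in which each member was set beside the unused reference cell of its sample nearest in total UMIs. The gene lists were counted in the same way. The counts of genes shared between lines were not. The median mitochondrial share was 2.75% to 5.83% in members and 2.50% to 5.89% in reference cells.

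To see whether the choice holds in transcripts it did not use, the UMIs of every cell were divided at random into a pair of sets of equal expected size. The cells were chosen on the first set and the 7 genes were measured in the second. In the second set their level was 3.01 to 28.3 times that of the reference cells (median 4.87), higher in 12 of 12 samples, with a log2 ratio of 2.74 ± 1.02 (SD, n = 12; exact two-sided sign-flip test over samples, p = 0.000488, the smallest this design gives). The highest ratio, in SCC1 cetuximab replicate 2, came from 200 against 7.08 CPM. There, 1 cell held 930 of the 1804 UMIs of the 7 genes. In SCC1 PBS replicate 1 (84.8 against 3.77 CPM), 1 cell held 474 of 806. The check was not repeated without cells with 10 or more UMIs. Of the cells chosen on the first set, 21.4% to 41.6% were in the top 10% of the second. The genes held up unequally. Across lines, SPRR1B was higher by 4.91 ± 0.29 (log2, SE; edgeR FDR 2.24e-13), SPRR2D by 4.36 ± 0.99 (FDR 0.00304), IVL by 2.60 ± 0.20 (FDR 1.33e-10) and TGM1 by 1.79 ± 0.17 (FDR 7.15e-09). SPRR3, which had no UMI in SCC25, gave no usable estimate across lines. It was higher by 9.17 ± 0.71 in SCC1 (FDR 1.45e-09) and by 3.71 ± 0.26 in SCC6 (FDR 5.52e-10). In SCC1, 1 cell held 313 of the 340 SPRR3 UMIs of cetuximab replicate 2 and 1 cell 25 of the 28 of PBS replicate 1. No SPRR3 UMI was found in the other SCC1 samples. Of 95 SPRR2D UMIs in SCC1 PBS replicate 1, 1 cell held 89. A cell with many UMIs is high in both sets, so the SCC1 value of SPRR3 describes few cells. Such cells also enter the SPRR1B and SPRR2D values across lines. TGM1 in SCC6 (1.24 ± 0.34, FDR 0.0514) and SPRR2D in SCC25 (0.85 ± 1.28, FDR 0.755) did not pass the threshold. Both sets of UMIs came from the same cells, so these values speak only to differences between cells in the 7 genes. They do not test whether the members are a cell type.

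The summed level of the 7 genes in the top-tenth cells is given as a description, with no test between treatments, since it chose the cells. In the top-tenth cells of SCC1 it was 133.6 and 33.0 CPM with PBS and 77.5 and 223.7 CPM with cetuximab. In SCC6 it was 90.6 and 77.6 CPM with PBS and 95.5 and 114.0 CPM with cetuximab, and in SCC25 54.7 and 119.8 CPM with PBS and 39.6 and 65.4 CPM with cetuximab. The groups overlapped in SCC1 and SCC25 and did not overlap in SCC6. Over the lines the difference was 17.7 CPM higher with cetuximab (67.3 in SCC1, 20.6 in SCC6 and -34.7 in SCC25). SCC1 cetuximab replicate 2 held the cell of 930 UMIs, and without that library the value was -6.62 CPM. When the cells with 10 or more UMIs were left out and the top 10% chosen again, the levels were 34.6, 29.7, 69.1 and 51.7 CPM in SCC1 (PBS first), 63.2, 59.3, 94.1 and 94.9 CPM in SCC6 and 48.5, 81.3, 38.1 and 61.4 CPM in SCC25. Both cetuximab samples then lay above both PBS samples in SCC1 and SCC6 and overlapped with them in SCC25, and the difference over lines was 15.5 CPM.

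Over all cells, the 7 genes stood at 12.9 and 4.03 CPM with PBS and 14.4 and 22.9 CPM with cetuximab in SCC1, at 12.9 and 12.5 against 18.2 and 29.0 CPM in SCC6, and at 6.02 and 14.6 against 4.32 and 8.58 CPM in SCC25. The difference over lines was 5.73 CPM (exact two-sided permutation test within lines, p = 0.185, smallest possible 0.00926, and exact sign-flip test over the 6 pairs of equal replicate number, p = 0.313). It was 7.17 CPM without SCC25 PBS replicate 2 and 4.29 CPM without SCC25 PBS replicate 1. After every cell had been thinned to 15000 UMIs, the share of cells with no UMI of the 7 genes was 93.0% and 95.1% with PBS and 82.3% and 86.4% with cetuximab in SCC1, 87.1% and 86.3% against 79.9% and 69.4% in SCC6, and 92.4% and 84.9% against 94.2% and 88.0% in SCC25. It was lower with cetuximab by 9.70 points in SCC1 and 12.03 points in SCC6, where groups did not overlap, and higher by 2.46 points in SCC25. The mean over lines, -6.43 points, did not pass the exact permutation test (p = 0.0833), nor the sign-flip test (p = 0.125). Without SCC25 PBS replicate 2 or SCC25 cetuximab replicate 1 it was -7.68 and -7.46 points. Without SCC25 PBS replicate 1 or SCC25 cetuximab replicate 2 it was -5.17 and -5.39 points. Before thinning, 81.9%, 84.3%, 56.1% and 66.5% of SCC1 cells, 76.5%, 70.1%, 68.7% and 37.3% of SCC6 cells and 85.5%, 70.9%, 86.1% and 72.9% of SCC25 cells had no such UMI (PBS first). Genes that these lines should lack, such as PTPRC and HBB, had a UMI in at most 0.345% of the cells of a sample and in at most 0.495% of its members.

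**Figure D2:**
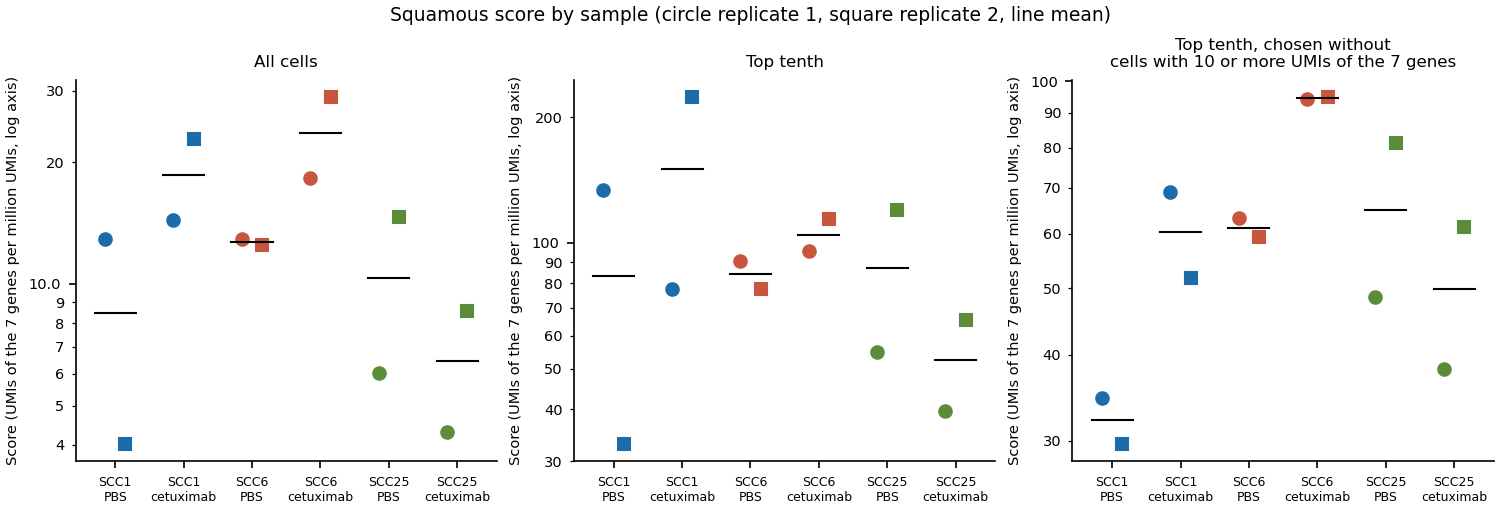
The summed level of the 7 genes in CPM, on a log axis, is plotted for all cells, for the top-tenth cells and for the top 10% chosen again without cells with 10 or more UMIs, with circles for replicate 1, squares for replicate 2 and a line at the mean of each group. In the third panel both cetuximab samples lie above both PBS samples in SCC1 and SCC6, and the groups overlap in SCC25.

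To describe what else distinguished the top-tenth cells, UMIs were summed per sample in both sets of cells and compared within samples with edgeR, with the 7 genes taken out of the counts. Across the 3 lines, 1817 of 15893 genes tested (11.4%) were higher in the top-tenth cells and 2380 (15.0%) were lower, at a false discovery rate (FDR) under 0.05. Against depth-matched reference cells, 2310 of 14187 genes (16.3%) passed in either direction, and 2140 genes passed in both comparisons with the same sign and 0 with the opposite sign. The lines differed in number. SCC1 had 676 higher (4.25%) and 630 lower (3.96%), SCC6 592 (3.72%) and 526 (3.31%), and SCC25 2319 (14.6%) and 2517 (15.8%). With matched depth the totals were 367 (2.59%), 784 (5.53%) and 2455 (17.3%). Genes that passed with the same sign in every line numbered 107 higher and 163 lower. Of the genes called in SCC1 and those called in SCC6, 310 were shared with 1 sign, which is 23.7% of the first list and 27.7% of the second, and 21 were shared with opposite signs. A sum over cells does not tell whether more cells carried a transcript or each cell carried more of it. The share of all genes called in a comparison is the background against which the counts of each group below are to be read, and each group's median log2 difference stands beside a median of about 0 over all genes (-0.02 across lines).

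Stress keratins, which epithelial cells make when they are activated, had the highest median difference across lines among the lists. Of 5 genes tested, 4 were higher across lines (median log2 difference 1.62), 4 in SCC1, 3 in SCC6 and 5 in SCC25, and none was lower. With matched depth 4, 4, 3 and 4 of 4 were higher. KRT16 stood in the SCC1 top-tenth cells at 46.9 and 28.7 CPM with PBS and 129 and 255 CPM with cetuximab, against 15.9, 16.8, 28.2 and 24.3 CPM in the reference cells of the same samples. In SCC6 it was 13.9, 20.4, 65.9 and 41.4 CPM against 8.75, 4.71, 16.04 and 15.6 CPM, and in SCC25 159, 447, 141 and 309.9 CPM against 46.6, 75.2, 43.8 and 69.8 CPM. The top-tenth cells were higher in 12 of 12 samples, with a log2 difference of 1.84 ± 0.10 (SE), edgeR FDR 6.80e-13. It was 1.37 without the cells with 10 or more UMIs, and it was called in SCC1, SCC6 and SCC25. In SCC6 the difference was 1.51 ± 0.19, and 0.72 after every cell had been thinned to 15000 UMIs (FDR 0.000830). KRT6A had 85.9 to 179 CPM in the top-tenth cells and 19.5 to 35.2 CPM in the reference cells of SCC1. In SCC6 the ranges were 11.7 to 30.4 against 1.49 to 17.1 CPM, and in SCC25 1203 to 2158 against 754 to 933 CPM. Across lines this was a log2 difference of 1.54 ± 0.10 (SE), edgeR FDR 8.69e-12, in the same direction in 12 of 12 samples. KRT17 was higher by 0.58 ± 0.04 (FDR 3.30e-11), at much higher levels of 4603 to 10441 CPM in SCC1. KRT6A, KRT6B and KRT6C, and KRT14, KRT16 and KRT17, have near-identical stretches, so how their reads were divided is uncertain.

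Other proteins of the cornified envelope, the cross-linked shell of a squamous cell, were listed beside the 7 genes. Of 31 genes listed, 12 passed the filter on low counts, and 5 were higher across lines, 9 in SCC1, 2 in SCC6 and 7 in SCC25, with 1 lower, in SCC6. Their median log2 differences were 0.97 across lines, 2.45 in SCC1, 0.35 in SCC6 and 0.46 in SCC25. Across lines these were CNFN, KRTDAP, CRCT1 and the plakins EVPL and PPL, which anchor the envelope to keratin. A gene could pass the filter through the top-tenth sums alone. SBSN, CRCT1 and CDSN stood at 0.0270 to 0.215 CPM in the reference cells of the lines. The filter may thus have raised the counts and medians of this list. KRTDAP, a secreted protein of differentiating keratinocytes, was in SCC1 at 81.7 and 16.4 CPM with PBS and 81.3 and 13.4 CPM with cetuximab, against 4.18, 0.184, 0.668 and 0.350 CPM in the reference cells of the same samples. All 4 SCC1 samples were higher, with a log2 difference of 5.49 ± 0.19 (SE), edgeR FDR 3.43e-17. In the 16 SCC1 cells with 10 or more UMIs of the 7 genes, KRTDAP was present in 5 and averaged 517 CPM, against 1.27 CPM in SCC1 reference cells. Without such cells the log2 difference was 2.71 (FDR 2.23e-05). PI3, the elastase inhibitor elafin that is cross-linked into the envelope, was in SCC1 at 85.2, 34.6, 36.5 and 21.4 CPM against 7.34, 4.79, 23.9 and 1.54 CPM and had 737 CPM in the 16 cells. Its log2 difference of 2.45 ± 0.24 (FDR 5.87e-08) was 0.32 without them and no longer passed (FDR 0.248). In the same 16 cells sciellin (SCEL) was present in 10 at 43.2 CPM, SBSN in 7 at 50.7 CPM and KRT13 in 16 at 2219 CPM, against 2.83, 0.0493 and 662 CPM in reference cells. Without the cells with 10 or more UMIs, 5 envelope genes were higher in SCC1, 5 in SCC25 and 1 in SCC6, where 1 was lower. With matched depth 6, 5 and 2 of 10 were higher in SCC1, SCC25 and SCC6, and 1 was lower in SCC6. CSTA, a cysteine protease inhibitor of the envelope, was lower in SCC6 (-0.49 ± 0.08, FDR 0.000254) and higher in SCC25 (0.45 ± 0.08, FDR 6.56e-05).

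Among 7 suprabasal keratins tested, KRT13, the keratin of mucosal suprabasal layers, was the one that passed across lines (0.66 ± 0.07, FDR 7.98e-08). It was higher in 9 of 12 samples, with 19.3 to 968 CPM in the top-tenth cells and 11.8 to 557 CPM in the reference cells in SCC25, and did not pass in SCC6 (0.21 ± 0.15, FDR 0.490). KRT10 was slightly lower in SCC1 (-0.17 ± 0.05, FDR 0.0286). By line, KRT1, KRT4, KRT13, KRT80 and KRT23 were higher in SCC1 and KRT80 in SCC6. KRT1, KRT4 and KRT13 were higher in SCC25, where KRT80 was lower. With matched depth 4 of 6 were higher in SCC1, 1 in SCC6 and 2 in SCC25, where 1 was lower. KRT1 stood at 0.0296 CPM in SCC1 and 0.115 CPM in SCC25 reference cells. It could pass the filter on low counts through the top-tenth sums alone. The simple keratins, which squamous layers normally make little of, were higher in SCC6, where 4 of 4 passed with a median of 0.46. KRT8 there had 4211 to 5527 CPM in the top-tenth cells and 2922 to 3614 CPM in the reference cells. In SCC1 1 of 4 was higher, and in SCC25 1 was higher and 2 lower. With matched depth 4 of 4 simple keratins were higher in SCC6 and 1 in SCC1, and in SCC25 1 was higher and 1 lower.

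**Figure D3:**
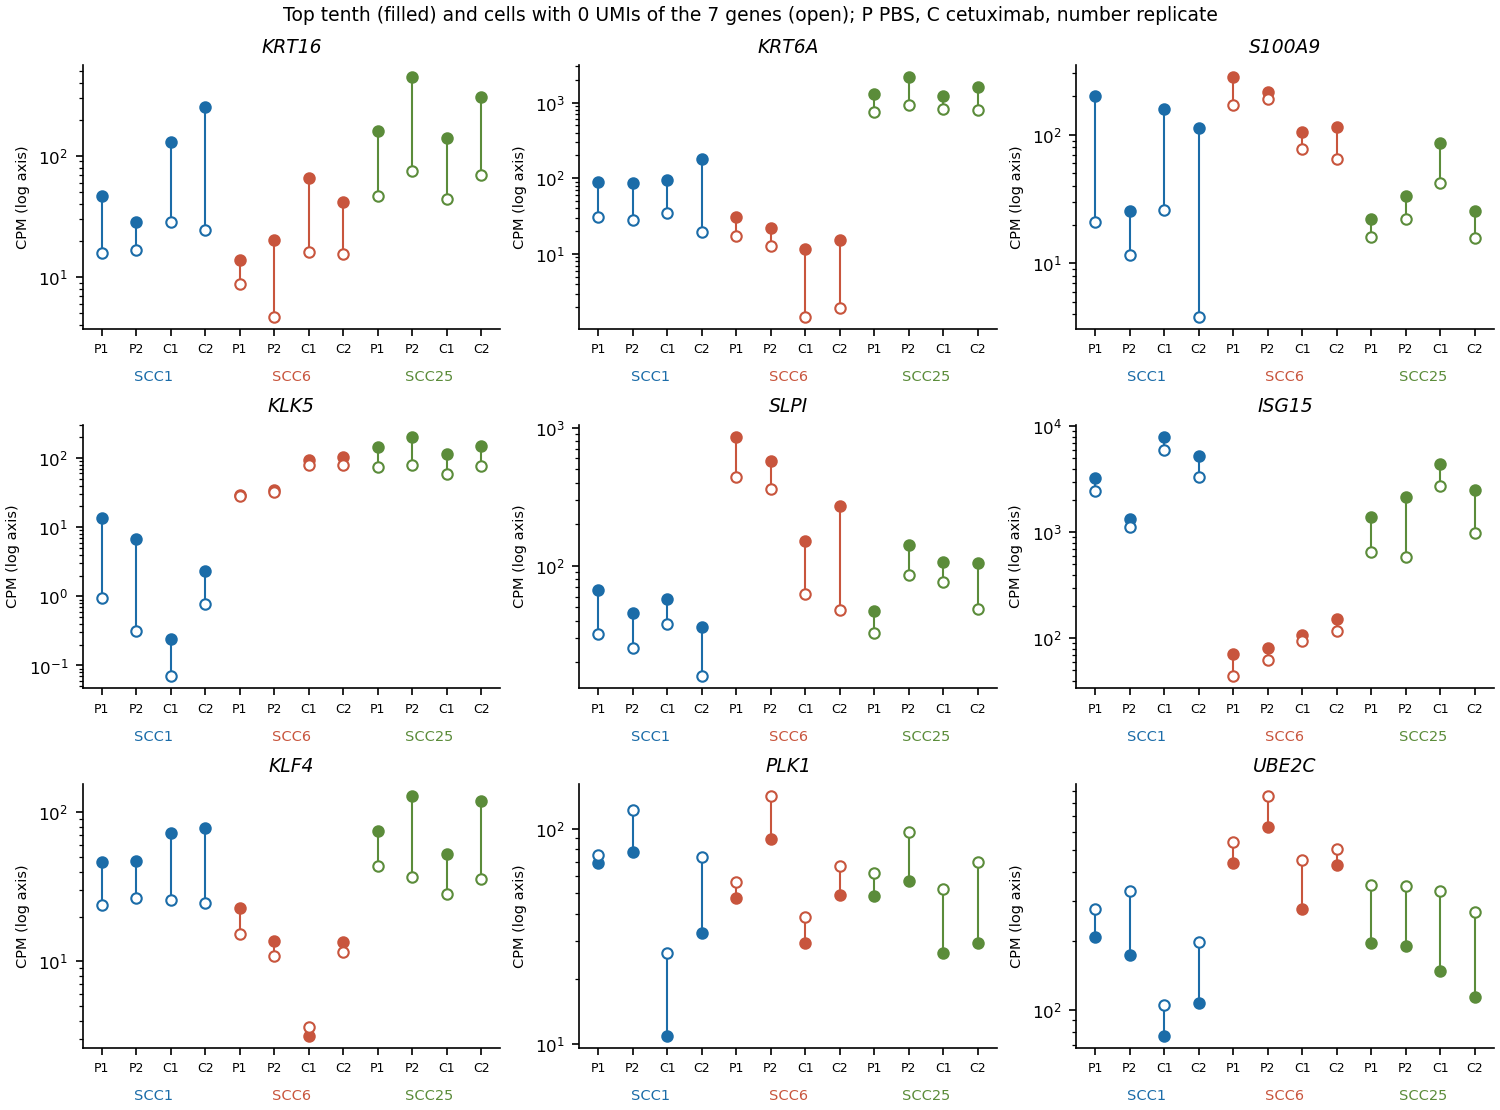
Levels of KRT16, KRT6A, S100A9, KLK5, SLPI, ISG15, KLF4, PLK1 and UBE2C in CPM, on a log axis, are plotted for each of the 12 samples, with filled symbols for the top-tenth cells and open symbols for the reference cells. The filled symbol lies above the open one in 12 of 12 samples for KRT16, KRT6A, S100A9, KLK5, SLPI and ISG15, in 11 for KLF4, and below it in 12 for PLK1 and UBE2C.

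Desmosomes are the junctions that hold keratin networks together. Of 10 genes tested, 8 were higher across lines (median 0.23), 7 in SCC1, 0 in SCC6 and 8 in SCC25, where PKP2 was lower. With matched depth 6, 3, 2 and 8 were higher. Desmoplakin (DSP) had 194 to 255 CPM in the top-tenth cells and 114 to 178 CPM in the reference cells in SCC25 and was higher in 12 of 12 samples (0.46 ± 0.04, FDR 4.42e-10). Desmoglein 3 (DSG3) was near 0 in SCC6 and in SCC25 reached 35.5 to 60.7 CPM in the top-tenth cells and 20.6 to 27.4 CPM in the reference cells (0.98 ± 0.09, FDR 1.43e-09). Tight and adherens junction genes moved less, with 6 of 14 higher and 1, EPCAM, lower across lines. With matched depth 4 were higher and 0 lower. Basal genes were not lower as a group. Of 18, 8 were higher and 1 lower across lines. SCC1 had 5 and 0, SCC6 4 and 3, and SCC25 14 and 1. KRT14, the main basal keratin, was higher in every sample, with 1737 to 4164 CPM in the top-tenth cells and 1232 to 2103 CPM in the reference cells in SCC1 and 3273 to 7908 CPM in the top-tenth cells and 1912 to 3645 CPM in the reference cells in SCC25, and stood at 0.631 to 2.60 CPM in SCC6. It gave a log2 difference of 0.82 ± 0.08 (SE), edgeR FDR 1.50e-08, which was 0.46 after thinning (FDR 0.0226) and did not pass when cells were chosen on one set of UMIs and tested on the other (0.30, FDR 0.200). Caveolin 1 (CAV1) was the basal gene that was lower across lines (-0.24 ± 0.04, FDR 1.79e-05).

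Secreted proteases and their inhibitors control the shedding of squamous cells. Of 7 kallikreins tested, 5 were higher across lines with a median of 1.46, 6 in SCC1 and 7 in SCC25, while in SCC6 none was higher and KLK8 was lower. With matched depth 5 were higher across lines, 4 in SCC1 and 7 in SCC25, and none was higher or lower in SCC6. KLK5, which starts the kallikrein cascade, had 114 to 204 CPM in the top-tenth cells and 58.2 to 79.2 CPM in the reference cells in SCC25 and 0.239 to 13.8 CPM in the top-tenth cells and 0.0703 to 0.945 CPM in the reference cells in SCC1. It was higher in 12 of 12 samples across lines (1.33 ± 0.11, FDR 8.13e-10), but in SCC6 by 0.15 ± 0.07 (FDR 0.212), and the lines differed (FDR 1.41e-08 for the test that all lines have 1 effect). KLK10 was likewise higher in SCC1 (3.65 ± 0.35, FDR 7.22e-08) and SCC25 (1.75 ± 0.12, FDR 4.05e-11). Of 13 protease inhibitors, 7 were higher across lines, 8 in SCC1, 4 in SCC6 and 9 in SCC25, where CST6 was lower. With matched depth 7, 7, 4 and 9 of 12 were higher and 0 lower. SLPI, an inhibitor of leucocyte elastase, was in SCC6 at 862 and 576 CPM with PBS and 152 and 272 CPM with cetuximab, against 439, 358, 62.7 and 47.7 CPM in the reference cells of the same samples. It was higher in 12 of 12 samples (0.96 ± 0.07, FDR 1.71e-10) and passed in each line. In SCC6 the difference was 1.31 ± 0.12, and 0.71 after thinning (FDR 3.82e-10).

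Of 14 S100 genes, calcium-binding proteins of which several are induced in activated keratinocytes, 8 were higher across lines and S100A2 was lower. With matched depth 8 of 13 were higher and 1 lower. S100A9 was in SCC1 at 198 and 25.6 CPM with PBS and 158 and 112 CPM with cetuximab, against 20.7, 11.6, 26.1 and 3.85 CPM in the reference cells of the same samples. It was higher in 12 of 12 samples (1.37 ± 0.13, FDR 6.21e-09), with 2.93 ± 0.24 in SCC1 (FDR 1.93e-09) and 0.49 ± 0.19 in SCC6 (FDR 0.142). Surface and mucosal genes showed 14 of 25 higher and 1 lower across lines. For SCC1 the counts were 13 and 1, for SCC6 5 and 0, and for SCC25 20 and 1. The mucin MUC4 was higher in 12 of 12 samples (0.54 ± 0.04, FDR 3.79e-10), and lipocalin 2 (LCN2) in SCC6 reached 414 to 2781 CPM in the top-tenth cells and 253 to 1307 CPM in the reference cells (0.71 ± 0.12, FDR 0.000465). LY6K was the gene of this list that was lower. Enzymes of barrier lipids had 5 of 13 higher and 0 lower across lines, and 4 of 11 higher and 0 lower with matched depth. SULT2B1, the cholesterol sulfotransferase of the epidermis, was the one higher in SCC1, SCC6 and SCC25.

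Transcription factors of squamous differentiation switch on the genes of the upper layers. Of 30, 14 were higher and 1 lower across lines. The counts per line were 8 and 1 for SCC1, 4 and 2 for SCC6, and 18 and 2 for SCC25. With matched depth 10 of 29 were higher and 1 lower across lines, and SCC25 had 16 and 1, SCC1 5 and 0 and SCC6 2 and 1. KLF4, needed for the epidermal barrier, was in SCC25 at 75.3 and 128 CPM with PBS and 52.7 and 120.1 CPM with cetuximab, against 44.0, 36.8, 28.3 and 35.8 CPM in the reference cells of the same samples. This was a log2 difference of 1.30 ± 0.11 (SE), edgeR FDR 9.81e-10, with 1.20 ± 0.12 in SCC1 (FDR 1.52e-07) and 0.25 ± 0.17 in SCC6 (FDR 0.465). OVOL1 was higher in SCC1 (0.78 ± 0.10, FDR 1.12e-05) and SCC25 (1.23 ± 0.09, FDR 8.51e-11), and in SCC6 was at -0.33 ± 0.13 (FDR 0.124). FOSL1, a subunit of AP-1, was lower in 12 of 12 samples and passed in every line (-0.41 ± 0.05 across lines, FDR 6.00e-07), whereas FOS, JUNB and FOSL2 were higher across lines. With matched depth FOSL1 passed across lines (-0.29, FDR 0.00333) and in SCC6 and not in SCC1 or SCC25. Of 12 NOTCH genes, 3 were higher across lines, and 2 of 11 with matched depth. The receptor NOTCH3 was higher in 12 of 12 samples (0.61 ± 0.06, FDR 2.51e-08), as was the target HES4 (0.25 ± 0.03, FDR 1.80e-06).

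Many cell cycle genes were lower in the top-tenth cells of every line. Of 50 proliferation genes, 46 were lower across lines (median -0.39), 22 in SCC1 (-0.24), 19 in SCC6 (-0.14) and 49 in SCC25 (-0.73), and 0 were higher by edgeR in any of these. With matched depth, 28, 13, 23 and 38 were lower and, in SCC1, 3 were higher. PLK1, a mitotic kinase, was in SCC1 at 69.1 and 77.6 CPM with PBS and 10.97 and 32.8 CPM with cetuximab, against 75.5, 122, 26.3 and 73.5 CPM in the reference cells of the same samples. In SCC6 it was 47.8, 89.3, 29.4 and 49.2 CPM against 56.5, 141, 39.0 and 66.9 CPM, and in SCC25 48.6, 57.0, 26.6 and 29.3 CPM against 62.0, 96.3, 52.3 and 69.6 CPM. It was lower in 12 of 12 samples, with a log2 difference of -0.73 ± 0.05 (SE), edgeR FDR 1.34e-11, and -0.59 with matched depth (FDR 7.03e-07). UBE2C, which targets mitotic proteins for destruction, gave -0.75 ± 0.04 (FDR 1.0e-12), and the log2 differences of PIMREG, PSRC1, FAM83D, CDC20, DEPDC1, HMMR and CDCA3 lay between -0.83 and -0.69. The median cell shows the same. Summed over the 50 genes, the median top-tenth cell of SCC25 had 1838, 494, 507 and 316 CPM (PBS first) against 2577, 2185, 1935 and 382 CPM in the median reference cell. In SCC1 cetuximab replicate 1 it was the other way round, with 279 against 258 CPM. Of 7 CDK inhibitors, CDKN1A was called across lines (0.31 ± 0.04, FDR 1.63e-06), and was called with matched depth too. Of 83 ribosomal protein genes, 39 were lower in SCC1, 2 with matched depth. Across lines 80 were lower, 75 with matched depth, but by little (median -0.15). The share of ribosomal protein genes in all UMIs of the top-tenth cells was 14.9% to 32.4%, against 18.1% to 34.5% in the reference cells.

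Interferon-stimulated genes, which cells switch on in antiviral defence, were mostly higher in SCC1 and SCC25. Of 26, 17 were higher and 0 lower across lines (median 0.42), 23 in SCC1 (0.36), 24 in SCC25 (0.83) and 2 in SCC6 (0.09), and with matched depth 16, 17, 23 and 1. ISG15, a ubiquitin-like modifier, was in SCC25 at 1390.1 and 2139.7 CPM with PBS and 4414 and 2537 CPM with cetuximab, against 652, 581, 2721 and 989 CPM in the reference cells of the same samples. In SCC1 it was 3224, 1342, 7986 and 5227 CPM against 2454, 1117, 5933 and 3358 CPM. The top-tenth cells were higher in 12 of 12 samples, with a log2 difference of 1.23 ± 0.09 (SE), edgeR FDR 8.05e-11 in SCC25 and 0.40 ± 0.09 in SCC1 (FDR 0.00430). RSAD2 (viperin) was in SCC25 at 15.1, 18.1, 59.6 and 43.1 CPM against 2.14, 2.40, 18.3 and 5.94 CPM (2.51 ± 0.16, FDR 5.95e-12), and in SCC6 was near 0. OASL in SCC25 was at 253 to 735 CPM, against 42.2 to 66.1 CPM in reference cells (2.99 ± 0.14, FDR 3.48e-14). The chemokine CCL5 was higher in SCC1 (2.65 ± 0.16, FDR 1.57e-11, or 1.43 after thinning) and SCC25 (2.70 ± 0.15, FDR 1.01e-12). In SCC6, ISG15 and IFIT1 passed (0.36 ± 0.10 with FDR 0.0205 and 0.56 ± 0.16 with FDR 0.0315), and neither did without the cells with 10 or more UMIs of the 7 genes (FDR 0.191 and 0.559).

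Mesenchymal genes are those that carcinoma cells express when they lose epithelial traits. Of 28 tested, 11 were higher and 0 lower in SCC6, 5 were higher and 14 lower in SCC25, and 2 were higher and 2 lower in SCC1. With matched depth the counts were 8 and 1 of 26 in SCC6, 2 and 9 in SCC25 and 0 and 2 in SCC1. Vimentin (VIM) was in SCC25 at 257 and 84.9 CPM with PBS and 310.2 and 231 CPM with cetuximab, against 380.0, 270.3, 549 and 509.6 CPM in the reference cells of the same samples. All 4 SCC25 samples were lower (-1.07 ± 0.10, FDR 8.19e-09), while in SCC6 it was 19.99, 93.9, 1005 and 871 CPM against 29.1, 83.2, 849 and 831 CPM (-0.03 ± 0.11, FDR 0.961). TAGLN, an actin-binding protein, was higher in SCC6 (0.32 ± 0.07, FDR 0.00495) and lower in SCC25 (-0.71 ± 0.08, FDR 3.52e-08), and the test that all lines have 1 effect gave FDR 2.16e-07, or 0.000348 with matched depth. Of 11 EGFR ligands, receptors and regulators, 2 (ERBB2 and ERBB3) were higher across lines. The receptor EGFR itself was lower in SCC6 (-0.21 ± 0.05, FDR 0.0136, 0.0446 with matched depth) and higher in SCC25 (0.27 ± 0.05, FDR 0.000189, 0.0173 with matched depth). The test that all lines have 1 effect gave FDR 0.000310, or 0.0141 with matched depth. In SCC6, EREG and ERRFI1 were also lower and TGFA was higher, and these 3 did not pass with matched depth. The ligands AREG and HBEGF and the receptor ERBB3 were also higher in SCC25, of which AREG passed with matched depth. AREG gave 0.30 ± 0.09 in SCC25 (FDR 0.00860) and was lower in SCC1 (-0.26 ± 0.08, FDR 0.0416), where ERBB2 was higher and no gene of the list passed with matched depth. Output genes of the MAPK pathway had 3 of 15 higher and 4 lower across lines, and 3 higher and 2 lower with matched depth. Inflammation genes had 4 of 17 higher and 3 lower, glycolysis and hypoxia genes 5 of 18 higher and 1 lower, and stress response genes 2 of 15 higher and 6 lower, among them the antioxidant genes NQO1, GCLM and TXNRD1. With matched depth, across lines, 0, 5, 4 and 2 genes of the EGFR, inflammation, glycolysis and stress lists were higher and 0, 0, 0 and 5 lower.

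**Figure D4:**
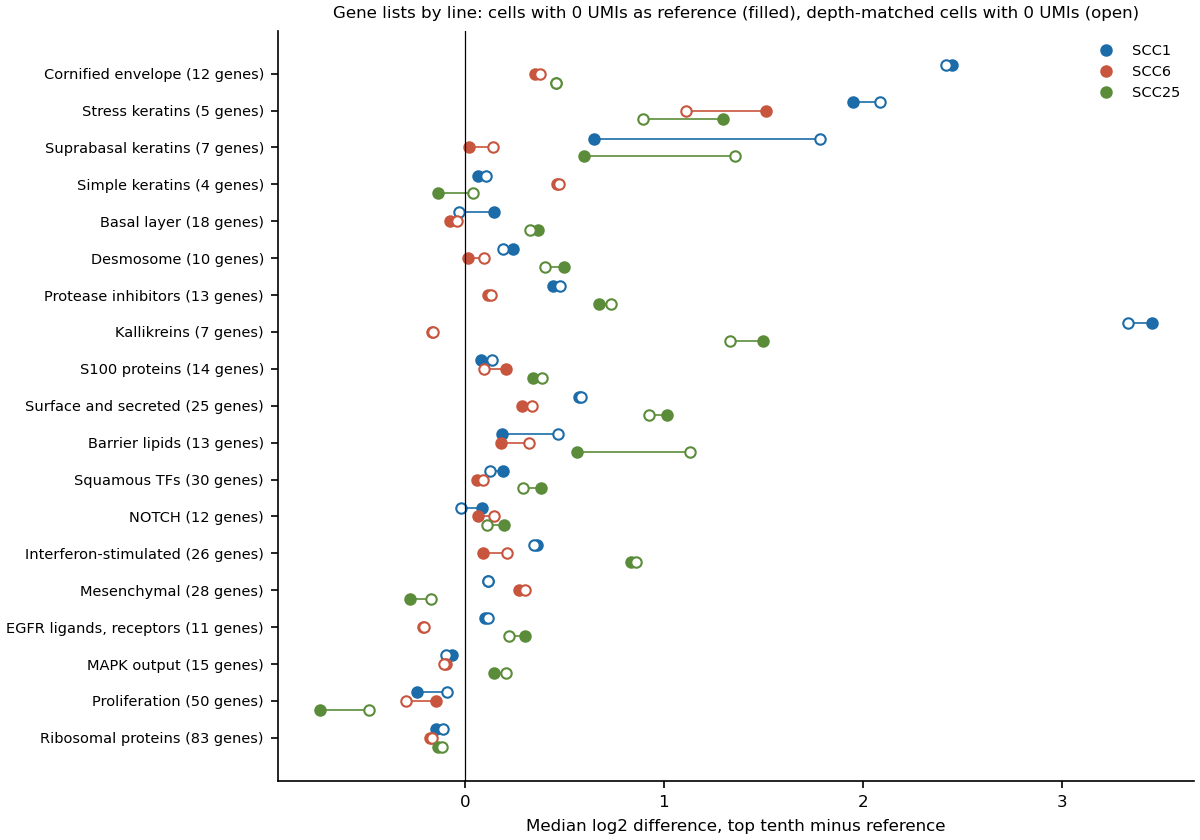
For the gene lists shown, the median log2 difference between top-tenth and reference cells is plotted for SCC1, SCC6 and SCC25, with filled symbols for all reference cells and open symbols for those matched on depth, and the number of genes tested. Stress keratins lie above 0 and proliferation genes below 0 in each line, while kallikreins lie well above 0 in SCC1 and SCC25 and near 0 in SCC6.

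By the rule for naming genes, RARRES3, DDX60, CRYAB and RHOV also stood among the 10 genes furthest above the reference cells across lines. CRYAB, a small heat shock protein, gave 1.49 ± 0.12 across lines (FDR 2.43e-10), made up of 2.96 ± 0.29 for SCC6 (FDR 1.10e-07), 0.90 ± 0.07 for SCC25 (FDR 4.16e-10) and 0.61 ± 0.17 for SCC1 (FDR 0.0263). SCC6, with the largest of these 3 values, held the gene at low levels of 0.721, 4.63, 2.07 and 3.51 CPM against 0.0831, 0.132, 0.900 and 1.11 CPM. In SCC25 it had 127 to 264 CPM in the top-tenth cells and 74.0 to 136 CPM in the reference cells. After thinning the value was 0.71 across lines (FDR 0.00471) and 0.89 in SCC6 (FDR 0.501), where the call was lost. CRYAB is also 1 of the 35 genes that marked SCC25 cells in the check of lines above. Cells at 20% or more of the SCC25 level of these markers made up 0.309% of SCC6 members and 0.109% of SCC6 reference cells. A fit without such cells was also made, and its value for CRYAB is not given here. RHOV gave 0.81 ± 0.06 (FDR 7.87e-11). DDX60 and RARRES3, both interferon-inducible, gave 1.22 ± 0.20 (FDR 3.08e-05) and 0.85 ± 0.11 (FDR 6.71e-07), the latter 0.52 after thinning (FDR 0.0278). MT1E, a metallothionein, had a fitted log2 difference of -1.65 ± 0.57 across lines (FDR 0.0412). In SCC6 it had no UMI in any member and at most 0.0878 CPM in reference cells, so that this value is no measure of a fold. In SCC1 the log2 difference was -0.30 ± 0.05 (FDR 0.000500), and the call across lines was lost with DESeq2 (adjusted p = 0.123) and with matched depth (FDR 0.0996). In SCC6, C15orf48 (1.42 ± 0.15, FDR 6.86e-07) and the growth factor binding protein IGFBP3 (1.17 ± 0.08, FDR 2.79e-10) were among the highest. The glutathione peroxidase GPX2 (-0.93 ± 0.08, FDR 7.84e-09) and the cystine transporter SLC7A11 (-0.57 ± 0.08, FDR 1.40e-05) were among the lowest. After every cell had been thinned to 15000 UMIs these were -0.60 (FDR 1.30e-06) and -0.29 (FDR 0.205), so that SLC7A11 lost its call. In SCC25, HERC5 was higher (2.46 ± 0.18, FDR 6.76e-11) and HIST1H1A lower (-1.07 ± 0.16, FDR 8.43e-06, 0.0746 with matched depth, where the value was -0.57).

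The effect differed between the lines for 1814 of 15893 genes (11.4%), and for 447 against depth-matched reference cells. IGFBP6 was among the clearest. In SCC25 it was 1793 and 2751 CPM with PBS and 1653 and 2300.4 CPM with cetuximab, against 789, 934, 745 and 916 CPM in the reference cells of the same samples. The log2 difference was 1.27 ± 0.05 there, 0.81 ± 0.06 in SCC1 and 0.11 ± 0.06 in SCC6. The protease PRSS23 was higher in SCC1 (1.31 ± 0.07) and at 0.01 ± 0.06 in SCC6 and 0.11 ± 0.05 in SCC25. The hair keratin KRT81 went opposite ways, with 18.5 to 63.5 CPM in the top-tenth cells and 53.3 to 164 CPM in the reference cells in SCC25 (-1.13 ± 0.09, FDR 2.55e-10) and 5098 to 7298 CPM in the top-tenth cells and 3428 to 6344 CPM in the reference cells in SCC6 (0.30 ± 0.07, FDR 0.00991). KRT80 was likewise lower in SCC25 (-0.75 ± 0.07) and higher in SCC1 (0.35 ± 0.08) and SCC6 (0.26 ± 0.06). KRT81 is also 1 of the 13 genes that marked SCC6 cells in the check of lines above. Cells at 20% or more of the SCC6 level of these markers made up 1.84% of SCC25 reference cells and 0.675% of SCC25 members. A fit without such cells was also made, and its value for KRT81 is not given here.

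Whether the difference between top-tenth and reference cells changed with cetuximab was tested in the same fit. Over lines, 9 of 15893 genes (0.0566%) passed, and 1 with matched depth. With cells chosen on a random set of UMIs 0 genes passed. Of the genes named, AKR1C3, an aldo-keto reductase, kept its call with matched depth. Its log2 difference with cetuximab minus that with PBS was -0.52 ± 0.08 (SE; edgeR FDR 0.0103, 0.0127 with matched depth). In SCC6 it was 17.4, 40.1, 12.6 and 16.6 CPM against 12.9, 28.0, 11.7 and 26.3 CPM in the reference cells (PBS first), and in SCC1 73.7, 69.4, 113 and 110.1 CPM against 59.9, 62.2, 154 and 167 CPM. For CRYAB, DKK1 and FAM89B the FDR was 0.0125, 0.0460 and 0.0460, and 0.121, 0.862 and 0.524 with matched depth.

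Within the top-tenth cells, which were chosen separately in each sample, cetuximab was compared with PBS in each line. Without pairing, 1 of 13821 genes (0.00724%) passed in SCC1, 224 (1.62%) in SCC6 and 2 (0.0145%) in SCC25. With replicates of equal number as a block, which the check of pairing allowed, 753 (5.45%), 1788 (12.9%) and 106 (0.767%) passed. The 7 genes chose the cells, so their levels are given with no test. TGM1 was in SCC6 at 3.61 and 3.58 CPM with PBS and 10.6 and 14.1 CPM with cetuximab, and in SCC1 at 29.7 and 27.3 CPM with PBS and 74.2 and 49.8 CPM with cetuximab. Its groups did not overlap in either line, and overlapped in SCC25, with 31.0 and 56.1 CPM with PBS and 23.8 and 37.8 CPM with cetuximab. IVL in SCC6 was at 21.2 and 35.9 CPM with PBS and 71.4 and 83.3 CPM with cetuximab. SPRR1B in SCC6 was at 33.9 and 26.7 CPM with PBS and 4.84 and 5.77 CPM with cetuximab, with both groups apart in opposite directions for IVL and SPRR1B. The share of all genes whose groups did not overlap is not given here, so for these genes it is a description only.

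In SCC6, some EGFR ligands were lower and some mesenchymal genes higher with cetuximab. Of 9 EGFR ligands, receptors and regulators tested, 3 were lower (5 with the block), and of 26 mesenchymal genes 10 were higher (19 with the block) and 0 lower. The ligand amphiregulin (AREG) was at 467 and 132 CPM with PBS and 5.39 and 20.5 CPM with cetuximab (log2 -4.71 ± 0.68 (SE), edgeR FDR 0.00953, 0.00193 with the replicate block), and epiregulin (EREG) at 158 and 94.5 CPM with PBS and 5.11 and 19.7 CPM with cetuximab (log2 -3.52 ± 0.56 (SE), edgeR FDR 0.0143, 0.00121 with the replicate block). PHLDA1, a gene induced by growth factor signalling, was at 636 and 136 CPM with PBS and 19.8 and 34.1 CPM with cetuximab (log2 -4.04 ± 0.64 (SE), edgeR FDR 0.0143, 0.00259 with the replicate block). Without SCC6 PBS replicate 1 these 3 genes had an unblocked FDR of 0.0908, 0.142 and 0.0908, and without SCC6 cetuximab replicate 1 of 0.0832, 0.0860 and 0.154. PHLDA1 also lost its call without SCC6 cetuximab replicate 2 (0.0715). The myosin light chain MYL7 was at 1.55 and 10.2 CPM with PBS and 221 and 322 CPM with cetuximab (log2 5.36 ± 0.65 (SE), edgeR FDR 0.00656, 5.85e-05 with the replicate block), and kept its call whichever library was left out, as did SUGCT (0.927 and 3.58 CPM with PBS and 44.6 and 44.6 CPM with cetuximab). The collagen gene COL5A1 was at 4.33 and 11.9 CPM with PBS and 166 and 123 CPM with cetuximab (log2 3.98 ± 0.54 (SE), edgeR FDR 0.00737, 8.17e-05 with the replicate block), and IGFBP5 at 2.99 and 31.3 CPM with PBS and 291 and 274 CPM with cetuximab (log2 3.88 ± 0.78 (SE), edgeR FDR 0.0395, 0.00197 with the replicate block). COL5A1 did not pass without SCC6 PBS replicate 1 (0.103) or SCC6 cetuximab replicate 1 (0.0540), and IGFBP5 was lost in 5 of the 12 leave-outs (FDR up to 0.166). The water channel AQP3 was lower (log2 -3.22 ± 0.71 (SE), edgeR FDR 0.0486, 5.85e-05 with the replicate block) and lost its call without any of 7 libraries (FDR up to 0.351).

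In SCC1, HRASLS2, a phospholipid-metabolising enzyme, was at 4.98 and 2.30 CPM with PBS and 53.9 and 47.0 CPM with cetuximab (log2 3.75 ± 0.42 (SE), edgeR FDR 0.0208, 0.000338 with the replicate block), and without any 1 of the 4 SCC1 libraries its unblocked FDR was 0.0539 to 0.746. In SCC25, the actin-binding TAGLN was at 80.8 and 57.1 CPM with PBS and 396 and 461 CPM with cetuximab (log2 2.60 ± 0.31 (SE), edgeR FDR 0.0397, 9.67e-05 with the replicate block) and the carboxypeptidase CPA4 at 7.07 and 4.53 CPM with PBS and 35.1 and 34.9 CPM with cetuximab (log2 2.56 ± 0.33 (SE), edgeR FDR 0.0404, 0.00341 with the replicate block). Both lost the unblocked call in 8 of 12 leave-outs, with an FDR of 0.905 without SCC25 PBS replicate 2. Of 26 interferon genes, 0 passed in any line by edgeR without the block, and with it 21 were higher in SCC1, 2 in SCC25 and 1 in SCC6, where 1 was lower. IFIT2 in SCC1 was at 236 and 126 CPM with PBS and 1269.8 and 859 CPM with cetuximab (log2 2.47 ± 0.43 (SE), edgeR FDR 0.116, 0.000321 with the replicate block). Of 50 proliferation genes, 0 passed without the block, and with it 31 were lower in SCC1, 11 in SCC6 and 6 in SCC25. KRT16, the leading keratin of the top-tenth cells, was at 46.9 and 28.7 CPM with PBS and 129 and 255 CPM with cetuximab in SCC1 (log2 2.29 ± 0.57 (SE), edgeR FDR 0.248, 0.00690 with the replicate block) and at 13.9 and 20.4 CPM with PBS and 65.9 and 41.4 CPM with cetuximab in SCC6 (log2 1.47 ± 0.56 (SE), edgeR FDR 0.244, 0.0247 with the replicate block), and in SCC25 its groups overlapped.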

How the data were processed

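The deposited files held UMI counts per gene and cell, made by the authors with Cell Ranger on GRCh38, the version not given in the sources used here. Each table had 33538 rows (33514 symbols) and no doublet caller was run. The cells, gene lists and comparisons were chosen with earlier results of these data known. UMIs were summed per sample and set of cells, and the 24 sums were fitted in edgeR 4.0.16 (R 4.3.3, quasi-likelihood test, Benjamini-Hochberg FDR, threshold 0.05). The fit had a term per sample and a class effect per line and treatment, which left 6 residual degrees of freedom. The 7 genes were removed before library sizes, and TMM scaled the sums within each sample. For cetuximab, the 12 sums of top-tenth cells were fitted with 6 group means. Low-count genes were filtered by edgeR's default rule on each fit. In the class fit the filter took each sample group and class as a group, so a gene could pass through the top-tenth sums alone.

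Replicates of equal number in a line deviated together (correlation of deviations from group means over 13821 genes, 0.322 in SCC1, 0.333 in SCC6 and 0.564 in SCC25), so they were treated as pairs, and values with the replicate number as a block are given beside those without. The score of all cells and the share without UMIs were tested by exact permutation within lines and sign flips over pairs (scipy 1.17.1), and the score of the top 10%, which chose the cells, is given with no test. Thinning drew 15000 UMIs per cell, which left out 851 cells below that depth.

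Alternatives were DESeq2 1.42.0 and its size factors, no filter, other reference cells, thinned cells, random sets of UMIs, other shares and cell filters, and each library left out. Chosen after seeing the data were the depth-matched reference, members with 2 or more UMIs, and the fits without cells with 10 or more UMIs or with markers of another line. Genes named are those of the lists and those with the largest called differences of 1 sign in every sample, at a mean of 20 CPM or more (10 each way across lines, 4 each way per line and per cetuximab comparison), or with the smallest p in the tests of differing effects (5 each). One gene of the last test is not reported here. On simulated data, the class fit across lines called 99 of 100 genes changed by 0.5 on the log2 scale, with 18 false calls among 15613 genes, and the cetuximab fit in SCC6 called 7 of 100 at 1.0 and 88 of 100 at 2.0. The genes changed had a mean of 20 CPM or more. Counts were drawn from the fitted model without choosing cells by their score, so errors that come from the choice of cells or their depth were not measured.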

Additional observations from a re-analysis of the deposited data

Results flagged for a closer look

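Of the genes with the smallest p in the test that the class effect is 1 and the same in SCC1, SCC6 and SCC25, 5 had a mean level of 20 CPM or more and differed between lines by edgeR. IGFBP6 (FDR 5.67e-10) had log2 differences of 0.81, 0.11 and 1.27 in SCC1, SCC6 and SCC25. PRSS23 (FDR 5.67e-10) had 1.31, 0.01 and 0.11, and KLK5 (FDR 1.41e-08) had 2.82, 0.15 and 1.03. KRT81 (FDR 1.79e-08) had 0.07, 0.30 and -1.13, and KRT80 (FDR 2.53e-08) had 0.35, 0.26 and -0.75. KRT81 was also a marker of SCC6 cells, and its SCC25 value in the fit without SCC6-like cells is not given here.

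The difference between top-tenth and reference cells changed with cetuximab by edgeR for AKR1C3 (FDR 0.0103), CRYAB (FDR 0.0125), DKK1 (FDR 0.0460) and FAM89B (FDR 0.0460), with log2 changes of -0.52, -1.37, 0.32 and -0.37. Against depth-matched reference cells AKR1C3 passed (FDR 0.0127) and CRYAB, DKK1 and FAM89B did not. With cells chosen on a random set of UMIs 0 genes passed.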

How the results depend on the processing

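Counts of called genes depended on how cells and reference were chosen, and the cause was not tested. Beside 4197 genes across lines, 1724 were called after thinning, 1829 with cells chosen on a random set of UMIs and 2310 with matched depth. In SCC1 (1306) these were 266, 213 and 367, with 2189 for the top 5% and 586 for members with 2 or more UMIs. In SCC6 (1118) they were 158 after thinning, 267 on the random set and 683 by DESeq2, and in SCC25 (4836) 2372, 2141 and 2455 with matched depth. Genes differing between lines (1814) were 1094 by DESeq2, 520 thinned, 276 on the random set and 447 with matched depth. Genes differing by treatment (9) were 16 by DESeq2, 65 with no filter, 16 against all other cells, 3 thinned, 0 on the random set (edgeR, with 573 at an unadjusted p under 0.05), 15 for the top 5%, 5 without cells over 20% mitochondrial, 1 with matched depth and 1 without cells with markers of another line. Cetuximab in SCC1 (1 gene) gave 130 by DESeq2, 299 with no filter and 0 thinned (996 unadjusted by edgeR). SCC6 (224) gave 523 and 751 by DESeq2 and with no filter. SCC25 (2) gave 7, 110 and 0 thinned (493 unadjusted).

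With the replicate block, cetuximab gave 753, 1788 and 106 genes in SCC1, SCC6 and SCC25. The pairing left the differences of 5.73 CPM over all cells and -6.43 points uncalled (exact sign-flip p of 0.313 and 0.125). The 17.7 CPM of the top 10% is the same with the pairing and is given with no test. The 11 genes named under cetuximab passed with the block too.

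Leaving out 1 library at a time gave 3508 to 4339 genes across lines, 460 to 1542 in SCC1, 491 to 1304 in SCC6, 2887 to 5013 in SCC25, 1023 to 2248 by line, 2 to 31 by treatment, and for cetuximab 0 to 3, 4 to 262 and 0 to 2. SCC1 gave 460, 705 and 619 without PBS replicate 1, PBS replicate 2 and cetuximab replicate 1. SCC6 gave 518, 663, 499 and 491 without PBS replicates 1 and 2 and cetuximab replicates 1 and 2, and SCC25 2887 without PBS replicate 2. By line it was 1023 and 1120 without SCC25 PBS replicate 2 and cetuximab replicate 2. By treatment it was 31 without SCC1 cetuximab replicate 2, 19 and 2 without SCC6 PBS replicate 2 and cetuximab replicate 2, and 24, 16 and 15 without SCC25 PBS replicate 1 and cetuximab replicates 1 and 2. SCC6 cetuximab counts were 149 without SCC1 PBS replicate 1 or 2, and 4, 11 and 38 without SCC6 PBS replicate 1 and cetuximab replicates 1 and 2. SCC1 counts were 0 without any 1 SCC1 library (430 to 1617 unadjusted by edgeR), and SCC25 counts 0 in 8 leave-outs. The score over all cells ranged from 3.94 to 7.53 CPM, the top 10% from -6.62 to 42.1 CPM, reversed without SCC1 cetuximab replicate 2, and the share without UMIs from -8.18 to -4.68 points.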
